A study of Bos taurus with 12 samples.

Results

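The addition of pyruvate to bovine embryonic stem cells held in a reduced feeder condition was examined through messenger RNA. The comparison sets the 3 libraries of the group named 1/7MC+Pyr against the 3 of the group named 1/7MC, 6 of the 12 libraries of the study. The groups were defined by these labels, and the comparison was chosen with earlier results of these data known. All groups are of the line F7, labelled as wild type embryonic stem cells. Low-density feeders, pyruvate and a recombinant human basic fibroblast growth factor (FGF) are named in the title of the series. What MC stands for, the dose and duration of pyruvate, the feeder species and whether feeders were removed before RNA isolation are not given in the sources used here. The 3 libraries of 1/7MC+Pyr+FGF, which received FGF on top of pyruvate, shared the fit and are set beside the results where stated. The MC group was left out of the main fit, entered only an alternative fit of all 12 libraries and is not described here. The labels do not tell whether replicates are separate cultures; p-values therefore reflect only how these libraries spread, which may be technical.

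Pyruvate is the end product of glycolysis. Cells take it up through monocarboxylate transporters, reduce it to lactate with lactate dehydrogenase, or pass it through the mitochondrial pyruvate carrier to pyruvate dehydrogenase, which makes acetyl-CoA, or to pyruvate carboxylase, which refills the tricarboxylic acid cycle. Its reduction to lactate regenerates NAD+, and acetyl-CoA exported as citrate is a building block of fatty acids and sterols and the donor of histone acetylation. Media for mammalian embryos and stem cells commonly contain pyruvate, and a feeder layer supplies secreted growth factors and matrix to the stem cells on it.

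Total counts were 29276694 to 37092605 in 1/7MC and 28762910 to 35486531 in 1/7MC+Pyr. On the first principal component of log2 CPM (counts relative to the library's size, adjusted by trimmed-mean factors) over the 6 libraries, which held 63.6% of the variance, all 3 libraries of 1/7MC lay from -34.8 to -30.7 and all 3 with pyruvate from 28.7 to 35.4. Replicates spread along the second component (14.7%), from -15.7 to 6.76 in 1/7MC and from -23.9 to 24.8 in 1/7MC+Pyr. Gene length moved with the contrast, but unevenly by library. The median log2 fold change was -0.097 in the shortest of 5 length classes of equal size and 0.057 in the longest. In the longest class the median deviation from each gene's mean log2 CPM was -0.062, 0.143 and -0.049 in 1/7MC replicates 1 to 3. With pyruvate it was 0.07, 0.027 and 0.091, so 1/7MC replicate 2 lay above every pyruvate library. Fitting the length trend of each library, a choice made after seeing the data, left medians of 0.003 to 0.012 in all classes and gave 1537 higher and 1730 lower genes. The 13 mitochondrially encoded genes took 2.79%, 3.39% and 2.38% of the counts of 1/7MC replicates 1 to 3 and 4.11%, 3.19% and 3.72% with pyruvate.

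Of 13770 genes tested, 1183 were higher with pyruvate, or 8.59 percent, and 1523 were lower, or 11.1 percent, at an adjusted p under 0.05 (edgeR quasi-likelihood test, Benjamini-Hochberg over all genes tested). "Rose" and "fell" below mean that a gene passed this test. Values after ± are standard errors of the log2 fold change of 1/7MC+Pyr over 1/7MC, with 3 libraries per group. The median over all genes tested was -0.012. The changes were unequal in size. A log2 fold change of at least 1 was reached by 264 risers and 534 fallers, one of at least 2 by 28 and 162, and one of at least 3 by 1 and 50. Leaving out 1/7MC replicate 1 gave 667 higher genes, leaving out 1/7MC replicate 3 gave 632 and leaving out 1/7MC+Pyr replicate 3 gave 646; the last of these also gave 976 lower genes. Genes were named by a rule given with the processing; ABCA1, ASNS, AXIN2, CDH1, COL1A1, COX1, FOXO4, HMGCS1, ID1 to ID4, LEF1, LHX2, NOG, OTX2, PHGDH, RAX, SIX3, VEGFA and WNT5B lie outside it and were chosen after their values were seen. In all 6 fits that left out 1 library, 540 of the risers and 878 of the fallers were called. The share of all genes tested whose levels did not overlap between the groups is not given here. Statements below that groups did not overlap therefore describe single genes only.

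**Figure D1:**
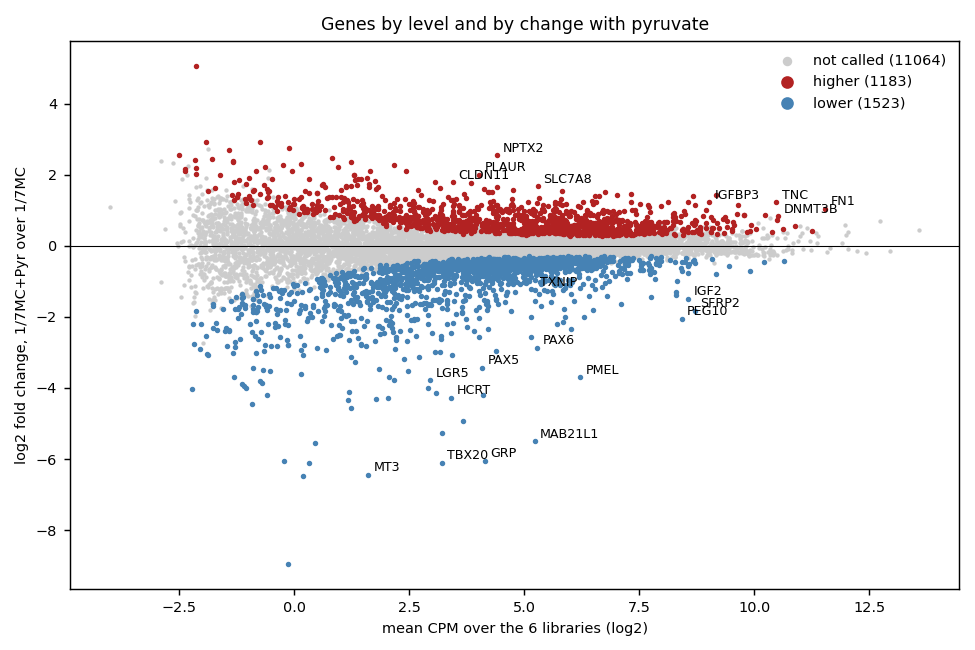
Each point is 1 of 13770 genes tested, with its mean CPM over the 6 libraries (log2) on the x axis and its log2 fold change of 1/7MC+Pyr over 1/7MC on the y axis. Red points (1183) rose, blue points (1523) fell and grey points were not called; falls reach beyond -6 for TBX20, GRP and MT3, while among the labelled genes the largest rise is NPTX2 at 2.54.

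Genes that pattern the eye and make its pigment layer fell, many of them by large factors. Transcription factors of the eye field, the territory of the anterior neural plate that becomes the optic vesicles, fell in 15 of 27 members tested and rose in 1, with a median log2 fold change of -1.28. All 15 falls were called in each fit that left out 1 library. These are bulk libraries, in which fewer cells of a type and less RNA per cell cannot be told apart. PAX6, the regulator at the head of eye development, was at 65.5, 70.4 and 70.0 CPM in 1/7MC replicates 1 to 3 and at 9.98, 10.8 and 7.19 CPM with pyruvate (-2.88 ± 0.21, edgeR adjusted p = 1.11e-06). SIX6, an eye-field factor of retina and hypothalamus, was at 25.4, 19.4 and 29.0 CPM against 0.616, 1.21 and 0.532 CPM (-4.93 ± 0.27). In both genes every pyruvate library lay below every library of 1/7MC, by a wide gap. MAB21L1, needed for lens and optic vesicle growth, fell from a mean of 73.2 to 1.61 CPM (-5.50 ± 0.24). RAX (-3.69 ± 0.31), LHX2 (-1.64 ± 0.16) and OTX1 (-4.29 ± 0.35) also fell. TBX2, a T-box factor of the dorsal optic cup, was at 13.5, 14.7 and 14.0 CPM against 0.889, 0.803 and 0.957 CPM (-3.99 ± 0.22). The fall did not cover the whole list. SIX3, an early eye-field factor, was at 108, 103 and 103 CPM against 90.8, 78.0 and 75.2 CPM and missed the threshold (-0.36 ± 0.14, edgeR adjusted p = 0.0753). OTX2, which marks forebrain and pluripotent cells alike, was at 145, 136 and 152 CPM against 156, 177 and 163 CPM (0.20 ± 0.10, edgeR adjusted p = 0.217). The 1 member that rose was ZIC2 (0.50 ± 0.11), a zinc finger factor also expressed in primed pluripotent cells.

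Several pigment genes fell beside them. MITF, the master regulator of pigment cells, was at 36.7, 35.5 and 39.4 CPM in 1/7MC and at 4.07, 5.94 and 4.29 CPM with pyruvate (-2.96 ± 0.24). PMEL, the fibril protein of the melanosome, was at 139, 134 and 140.1 CPM against 10.6, 11.2 and 9.89 CPM (-3.70 ± 0.11, edgeR adjusted p = 3.61e-10). DCT, a melanin-synthesis enzyme, fell from 32.7 to 1.78 CPM (-4.19 ± 0.26). Counts of MLANA, a melanosome protein, were 76, 71 and 127 against 0, 3 and 2. RLBP1, the retinaldehyde carrier of retinal pigment epithelium, was at 19.5, 14.1 and 20.3 CPM against 0.410, 0.631 and 0.319 CPM (-5.26 ± 0.30). The levels of these 5 genes did not overlap between the groups, which for MLANA was a condition of being named. In the list of retinal and pigment epithelium genes 9 of 23 members tested fell and 4 rose, with a median of -0.26. The pigment enzymes and melanosome proteins accounted for 4 of the 9 falls among 8 members, and 1 of them rose. That riser, OCA2 (0.55 ± 0.18), lost the call in each of the 6 fits that left out 1 library. LRAT, which stores vitamin A as esters, rose (1.17 ± 0.15). The other rises, RDH11 and MERTK, held in only part of those fits. The list had 1 rise without 1/7MC replicates 1 or 3 or 1/7MC+Pyr replicates 1 or 3, and 2 without 1/7MC+Pyr replicate 2.

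**Figure D2:**
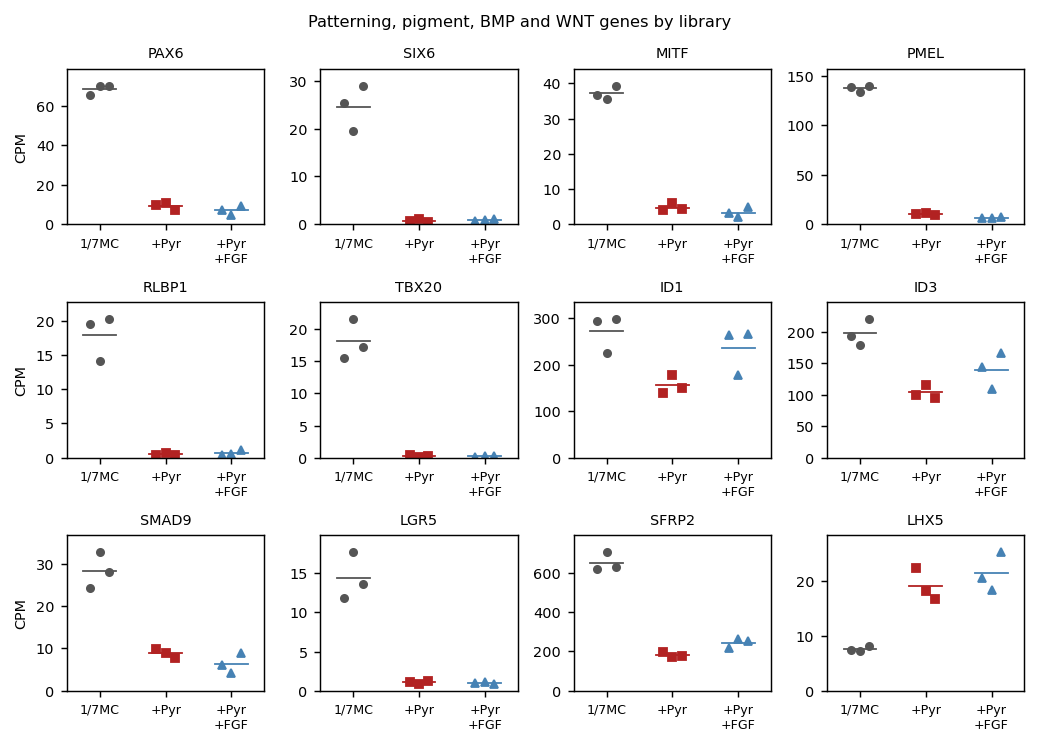
CPM of 12 genes in each library of 1/7MC (grey circles), 1/7MC+Pyr (red squares) and 1/7MC+Pyr+FGF (blue triangles), with horizontal lines at group means and y axes that start at 0. In 11 panels all pyruvate libraries lie below all 1/7MC libraries; LHX5, the exception, rose from a mean of 7.57 to 19.1 CPM.

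Other patterning genes changed in both directions. TBX20, a T-box factor of heart and hindbrain motor neurons, had 459, 819 and 601 counts in 1/7MC and 12, 4 and 8 with pyruvate (-6.10 ± 0.30, edgeR adjusted p = 6.54e-08). PAX3, a factor of dorsal neural tube and neural crest, fell from 4.51 to 0.191 CPM (-4.58 ± 0.45). PAX5, of the midbrain-hindbrain boundary and of B cells, was at 28.9, 37.0 and 27.4 CPM against 2.84, 2.73 and 3.08 CPM (-3.43 ± 0.16). DLX1, a forebrain interneuron factor, had 47, 75 and 52 counts against 2, 0 and 0, a ratio of 82.0 with an exact 95% interval of 22.4 to 682 that covers counting error only. It was thus near the detection floor in all 3 pyruvate libraries. Only 7 of the 36 HOX genes in the counts were high enough to test; 2 fell and none rose at the threshold (1 rose at an unadjusted p under 0.05, and 0 by DESeq2; 1 rose without 1/7MC+Pyr replicate 2). Among 26 forebrain and hypothalamic genes 8 rose and 6 fell. The neuropeptide HCRT (orexin) was at 22.4, 21.1 and 17.4 CPM against 0.923, 1.09 and 1.10 CPM (-4.28 ± 0.23), and GRP, gastrin-releasing peptide, at 40.4, 25.4 and 38.4 CPM against 0.616, 0.660 and 0.248 CPM (-6.06 ± 0.32). By contrast the neuropeptides GAL (2.35 ± 0.27), TAC3 (2.29 ± 0.36) and PDYN (0.94 ± 0.14) rose. LHX5, a factor of forebrain and hypothalamus, was at 7.41, 7.15 and 8.15 CPM in 1/7MC and at 22.3, 18.2 and 16.7 CPM with pyruvate (1.33 ± 0.15). NPTX2, a secreted synaptic pentraxin, rose from 5.66, 7.65 and 5.42 CPM to 43.8, 28.3 and 37.2 CPM (2.54 ± 0.25). This was the largest rise among called genes with a symbol, a mean of at least 1 CPM and no overlap between the groups.

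Among neural progenitor and neuron genes 11 of 32 fell and 5 rose. Of 11 progenitor genes 5 fell and none rose (0 by DESeq2 or at an unadjusted p under 0.05), whereas among the 12 neuron genes 4 rose and 2 fell. NEFM (0.92 ± 0.11) and NEFL (0.68 ± 0.10), the neurofilament chains, rose, and MAP2, a dendritic microtubule protein, fell (-1.37 ± 0.14). In the mesoderm list 6 of 16 fell and 3 rose, the risers being MEOX1, KDR and EOMES. KDR, a receptor for vascular growth factor, was at 3.44, 6.01 and 3.72 CPM against 11.8, 9.73 and 10.9 CPM (1.29 ± 0.27). Endoderm and hypoblast genes fell in 4 of 16 tested, CXCR4 (-1.02 ± 0.17) and HHEX (-0.74 ± 0.17) among them. None of them rose at the threshold (2 at an unadjusted p under 0.05, 1 by DESeq2, and 1 without 1/7MC replicate 2). Of 21 trophectoderm and amnion genes 6 fell and 5 rose, with 3 rises without 1/7MC+Pyr replicate 3. GATA3, a trophoblast factor, fell from 9.84 to 2.37 CPM (-2.05 ± 0.27), and ISL1, an amnion and heart factor, from 16.6 to 5.66 CPM (-1.55 ± 0.20). KRT8, a keratin of simple epithelia, rose from 473 to 799.8 CPM (0.76 ± 0.12).

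Genes of the response to bone morphogenetic protein (BMP) fell with pyruvate, most of its targets among them. BMP ligands act through SMAD1, SMAD5 and SMAD9, which switch on the ID genes, inhibitors of basic helix-loop-helix factors. Of 28 genes tested 16 fell and 1 rose, with a median of -0.84, the largest share of falls among the 43 lists described here. Among the 10 targets 9 fell and all 10 estimates were below 0 (0 higher by DESeq2 or at an unadjusted p under 0.05). ID1 was at 293, 225 and 299 CPM in 1/7MC and at 139.6, 178 and 149 CPM with pyruvate (-0.81 ± 0.16). ID3 was at 193, 178 and 221 CPM against 100.3, 115 and 95.1 CPM (-0.93 ± 0.15, edgeR adjusted p = 0.000629). ID2 (-1.26 ± 0.17) and ID4 (-1.10 ± 0.19) fell as well. All 4 ID genes were chosen after their values were seen. SMAD9, itself a transducer and target, fell from 28.4 to 8.84 CPM (-1.68 ± 0.21), ATOH8 by 1.66 and MSX2 by 1.41 on the log2 scale. The ligand BMP4 was at 127, 138 and 122 CPM against 87.7, 79.1 and 71.4 CPM (-0.70 ± 0.12). The receptor BMPR1B fell from 14.9 to 5.12 CPM (-1.54 ± 0.19). Antagonists were divided. NOG (noggin) fell (-0.88 ± 0.18), while CHRD (chordin), which binds BMP ligands outside the cell, was the 1 member to rise, from 11.2, 15.0 and 12.7 CPM to 36.0, 22.1 and 28.1 CPM (1.14 ± 0.19). A second rise was called without 1/7MC replicate 2. Leaving out libraries gave 14 to 16 falls.

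WNT genes fell in 16 of 46 members tested and rose in 6, with a median of -0.16. LGR5, the R-spondin receptor that marks WNT-responsive stem cells, was at 11.9, 17.8 and 13.7 CPM in 1/7MC and at 1.13, 0.832 and 1.21 CPM with pyruvate (-3.78 ± 0.21, edgeR adjusted p = 1.57e-07). DKK1, a secreted inhibitor and WNT target, was at 15.6, 19.1 and 18.8 CPM against 3.62, 3.24 and 2.80 CPM (-2.47 ± 0.17). AXIN2, the feedback target used most often as a WNT readout, moved less, from 10.9 to 6.96 CPM (-0.66 ± 0.14). LEF1, another target, was at 15.9, 18.6 and 15.8 CPM against 14.9, 14.4 and 12.2 CPM and was not called (-0.28 ± 0.15, edgeR adjusted p = 0.24). Ligands fell in 4 of 9 members, WNT5B among them (-1.67 ± 0.21). SFRP1 and SFRP2, secreted inhibitors related to the frizzled receptors, went opposite ways. SFRP2 was at 618, 707 and 631 CPM against 199, 174 and 177 CPM (-1.83 ± 0.11) and SFRP1 at 233, 250.4 and 198 CPM against 571, 482 and 538 CPM (1.23 ± 0.13). The receptor FZD7, which is high in pluripotent cells, rose (1.11 ± 0.21). In fits that left out 1 library 16 to 18 falls and 3 to 6 rises were called, the 3 without 1/7MC replicate 3.

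**Figure D3:**
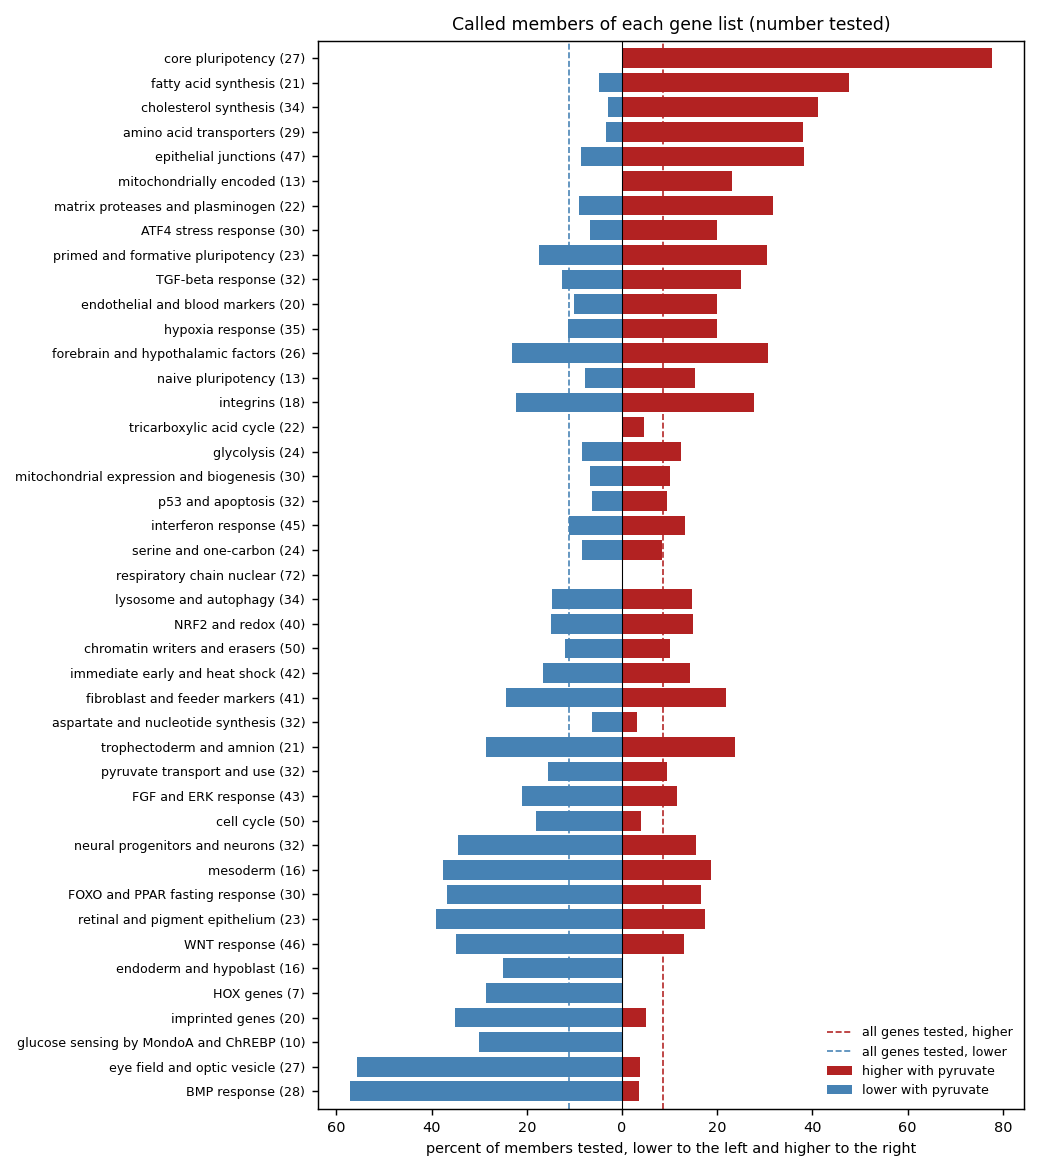
Percent of the tested members of each of 43 gene lists that rose (red, right) or fell (blue, left) with pyruvate, with the number tested in brackets; dashed lines mark 8.59 and 11.1 percent of all genes tested. Core pluripotency (21 of 27) has the longest red bar and BMP response (16 of 28) the longest blue one, while none of 72 nuclear respiratory chain genes was called.

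Core pluripotency genes were higher with pyruvate. Of 27 tested 21 rose and none fell at the threshold, with a median of 0.73 (at an unadjusted p under 0.05 22 were higher and 1 lower; DESeq2 called 21 and 0). The changes were modest beside the falls above. NANOG was at 43.3, 37.4 and 40.4 CPM in 1/7MC and at 61.8, 81.0 and 75.6 CPM with pyruvate (0.85 ± 0.15, edgeR adjusted p = 0.00137). PRDM14, a repressor of differentiation genes, was at 59.1, 56.9 and 62.7 CPM against 117, 104 and 116 CPM (0.92 ± 0.10). DNMT3B, the de novo DNA methyltransferase of primed cells, was at 1102, 1017 and 1042 CPM against 1792, 1867 and 1958 CPM (0.83 ± 0.11). PODXL, a sialomucin of the stem cell surface, rose from 498 to 1099 CPM (1.14 ± 0.16) and the tetraspanin CD9 from 623 to 1128 CPM (0.86 ± 0.11). Levels of these 5 genes did not overlap between the groups. POU5F1 (OCT4) rose from 779.7 to 1163 CPM (0.58 ± 0.14), but missed the threshold without 1/7MC+Pyr replicate 3 (0.56, edgeR adjusted p = 0.0517). Leaving out 1 library gave 14 to 19 rises, and 13 members rose in every such fit. The rises extended less to other lists of the pluripotent state. Primed and formative genes rose in 7 of 23 and fell in 4, and naive genes rose in 2 of 13 (PRDM14 and SUSD2) and fell in 1 (TBX3), or 2 without 1/7MC+Pyr replicate 1. POU3F1 (OCT6), a formative factor, rose (0.71 ± 0.14), and CRABP1, a retinoic acid binding protein, fell (-1.22 ± 0.23).

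Imprinted growth genes fell, on the paternally expressed side. Of 12 paternally expressed members tested 7 fell and 1 rose; of 8 maternally expressed ones edgeR and DESeq2 called 0, and 1 was higher and 3 lower at an unadjusted p under 0.05. IGF2, the fetal growth factor, was at 539, 634 and 495 CPM in 1/7MC and at 239, 168 and 184 CPM with pyruvate (-1.50 ± 0.18). PEG10, a retrotransposon-derived placental gene, was at 544, 624 and 489 CPM against 123, 152 and 125 CPM (-2.05 ± 0.15, edgeR adjusted p = 1.11e-06). Its neighbour SGCE fell from 23.6 to 9.09 CPM (-1.38 ± 0.16) and MEST from 452 to 182 CPM (-1.31 ± 0.17). MAGEL2 was the 1 riser (0.54 ± 0.12), joined by a second without 1/7MC replicate 2. These counts do not separate the parental alleles. IGFBP3, which binds insulin-like growth factors, rose from 301, 323 and 310.0 CPM to 764, 656 and 755 CPM (1.22 ± 0.11).

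**Figure D4:**
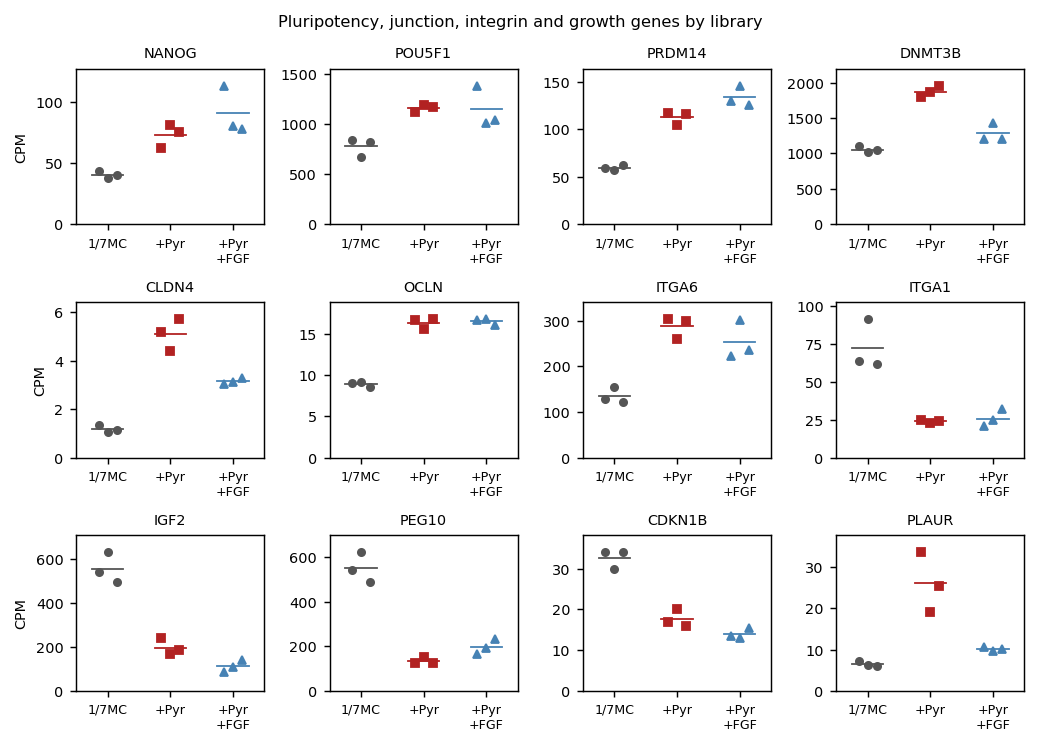
CPM of 12 genes in each library of 1/7MC (grey circles), 1/7MC+Pyr (red squares) and 1/7MC+Pyr+FGF (blue triangles), with lines at group means and y axes from 0. NANOG, POU5F1, PRDM14, DNMT3B, CLDN4, OCLN, ITGA6 and PLAUR lie higher in all 3 pyruvate libraries than in all 3 of 1/7MC, and ITGA1, IGF2, PEG10 and CDKN1B lower.

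Genes of pyruvate's own handling changed one by one. Of 32 tested 3 rose and 5 fell, against 8.59 and 11.1 percent of all genes tested. SLC16A1 (MCT1), the main monocarboxylate transporter, was at 207, 229.5 and 202 CPM in 1/7MC and at 322, 326 and 358 CPM with pyruvate (0.66 ± 0.11, edgeR adjusted p = 0.00124). MPC1, which forms the mitochondrial carrier for pyruvate, went the other way, from 36.0, 34.4 and 39.6 CPM to 19.3, 25.7 and 22.0 CPM (-0.71 ± 0.13). Its partner MPC2 was at 45.7, 36.8 and 43.6 CPM against 30.7, 39.0 and 31.8 CPM and was not called (-0.31 ± 0.17). LDHA, the lactate dehydrogenase subunit that favours lactate, was at 164, 150.0 and 189.5 CPM against 85.3, 112 and 101 CPM (-0.76 ± 0.15), while LDHB was not called (0.21 ± 0.19). None of the 5 genes of the pyruvate dehydrogenase complex was called by edgeR (0 by DESeq2 and 0 at an unadjusted p under 0.05; median 0.10). Of the kinases that switch it off, PDK1 fell from 16.1 to 9.57 CPM (-0.75 ± 0.14) and PDK4 from 1.18, 0.715 and 1.96 CPM to 0.171, 0.0861 and 0.0709 CPM (-3.52 ± 0.53). PDK2 (-0.14 ± 0.12) and PDK3 (-0.13 ± 0.13) were not called. SLC16A6, a transporter of ketone bodies and taurine, fell (-1.17 ± 0.22). The other 2 rises, SLC16A7 and PC, were lost without 1/7MC replicates 1 or 3 or 1/7MC+Pyr replicate 3, which left 1.

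TXNIP and ARRDC4 are arrestin-like brakes on glucose uptake and classic targets of the glucose-sensing factor MondoA. TXNIP was at 52.5, 50.3 and 54.5 CPM in 1/7MC and at 20.8, 23.1 and 23.0 CPM with pyruvate (-1.23 ± 0.13, edgeR adjusted p = 3.18e-05). ARRDC4 was at 25.2, 28.3 and 29.5 CPM against 15.9, 19.3 and 16.9 CPM (-0.67 ± 0.11). Neither gene overlapped between groups. In the list of 10 glucose-sensing genes 3 fell and none rose at the threshold (1 at an unadjusted p under 0.05, 0 by DESeq2). Genes of the fasting response driven by FOXO factors and PPARs fell in 11 of 30 and rose in 5, with a median of -0.22. Of its 23 targets tested 9 fell and 2 rose. ACADVL, which opens the oxidation of long-chain fatty acids, was at 59.2, 57.8 and 63.8 CPM against 38.4, 35.5 and 34.7 CPM (-0.74 ± 0.12). HADHA, the trifunctional enzyme of the same pathway, fell from 85.0 to 59.1 CPM (-0.52 ± 0.10), and CPT1A, which admits fatty acids into mitochondria, from 3.04 to 1.33 CPM (-1.19 ± 0.26). Of 7 regulators 3 rose and 2 fell. FOXO1 was at 76.4, 87.0 and 73.7 CPM against 129, 133 and 134 CPM (0.74 ± 0.14), and PPARD (0.48 ± 0.11) and the coactivator PPARGC1B (0.92 ± 0.17) rose, while FOXO4 (-0.37 ± 0.12) and PPARGC1A (-1.36 ± 0.41), a coactivator related to PPARGC1B, fell. The call of FOXO4 held only without 1/7MC replicate 2 and that of PPARGC1A only without 1/7MC replicate 1 among the 6 fits that left out 1 library, with edgeR adjusted p-values of up to 0.147 and 0.12. Leaving out 1/7MC replicate 3 gave 6 falls and leaving out 1/7MC+Pyr replicates 1 or 3 gave 7, and rises numbered 3 without 1/7MC replicate 2.

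Genes of lipid synthesis rose more often than they fell. Of 34 cholesterol genes 14 rose and 1 fell (median 0.38), 12 of the risers being among the 20 enzymes of the pathway. HMGCS1, which makes the precursor of mevalonate, was at 526, 498 and 544 CPM in 1/7MC and at 697, 927 and 896 CPM with pyruvate (0.69 ± 0.14). CYP51A1, the lanosterol demethylase, was at 147, 162 and 141 CPM against 232, 238 and 265 CPM (0.71 ± 0.12). SQLE (0.64 ± 0.12) and MSMO1 (0.58 ± 0.10), later steps of the pathway, rose as well. The member that fell was ABCG1, which exports cholesterol and is a target of the oxysterol receptors LXR. It was at 9.33, 10.7 and 8.88 CPM against 1.64, 2.15 and 1.74 CPM (-2.38 ± 0.21, edgeR adjusted p = 7.14e-06), whereas ABCA1, another exporter, was not called (0.11 ± 0.17). Of 21 fatty acid synthesis genes 10 rose and 1 fell (median 0.29). ACSS2, which makes acetyl-CoA from acetate in the cytosol and nucleus, was at 50.8, 46.0 and 52.4 CPM against 86.6, 89.1 and 92.1 CPM (0.84 ± 0.11). SCD, the desaturase, rose from 1088 to 1778 CPM (0.71 ± 0.17), ELOVL5 by 0.65 and ELOVL6 by 0.56 on the log2 scale. ACSL1, which activates long-chain fatty acids, fell (-0.70 ± 0.16). Leaving out 1/7MC replicate 1 gave 9 cholesterol and 5 fatty acid synthesis rises, 1/7MC replicate 3 gave 8 and 6, and 1/7MC+Pyr replicate 3 gave 8 and 5.

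**Figure D5:**
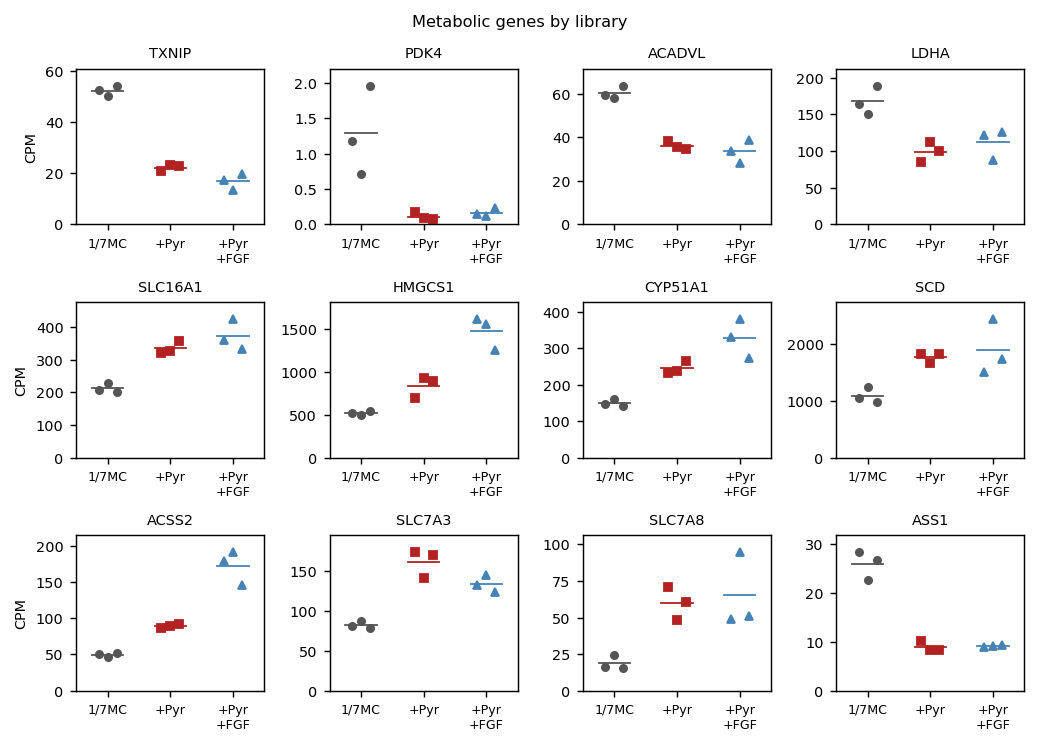
CPM of 12 metabolic genes in each library of 1/7MC (grey circles), 1/7MC+Pyr (red squares) and 1/7MC+Pyr+FGF (blue triangles), with lines at group means and y axes from 0. TXNIP, PDK4, ACADVL, LDHA and ASS1 lie lower in all pyruvate libraries than in all 1/7MC libraries, and SLC16A1, the lipid synthesis genes and the amino acid transporters higher.

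Transporters of amino acids rose in 11 of 29 members and fell in 1 (median 0.42). SLC7A8 (LAT2), an exchanger of neutral amino acids, was at 16.5, 24.6 and 15.4 CPM in 1/7MC and at 70.8, 48.2 and 60.7 CPM with pyruvate (1.67 ± 0.25). SLC7A3, a carrier of arginine and lysine, was at 81.4, 87.0 and 78.8 CPM against 174, 140.3 and 169.7 CPM (0.97 ± 0.11, edgeR adjusted p = 4.61e-05). The glutamine transporter SLC38A5 (1.19 ± 0.15) and the taurine transporter SLC6A6 (0.85 ± 0.16) rose, and the lysosomal SLC36A4 fell (-0.97 ± 0.14). Leaving out 1/7MC replicates 1 or 3 gave 6 rises, leaving out 1/7MC+Pyr replicates 1 or 3 gave 7, and there were 6 in the deposited length-scaled signal. ASS1, which joins aspartate and citrulline in arginine synthesis, was at 28.4, 22.6 and 26.8 CPM against 10.1, 8.29 and 8.36 CPM (-1.54 ± 0.13). SLC25A12, the mitochondrial exporter of aspartate, fell (-0.62 ± 0.13), and GLUD1, glutamate dehydrogenase, was the 1 riser of 32 aspartate and nucleotide genes (0.52 ± 0.11), of which 2 fell. That count of rises was 3 when 1/7MC+Pyr replicate 1 was left out and 2 when 1/7MC+Pyr replicate 2 was. PSAT1, of serine synthesis, was at 52.2, 42.3 and 53.2 CPM against 18.6, 24.9 and 20.0 CPM (-1.22 ± 0.14), while PHGDH, the first enzyme of the pathway, was not called (0.12 ± 0.11). Of 24 serine and one-carbon genes 2 rose and 2 fell, near the 8.59 and 11.1 percent of all genes tested. There was 1 rise without 1/7MC replicates 2 or 3 or 1/7MC+Pyr replicates 2 or 3.

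Genes of the respiratory chain lie in the nuclear and the mitochondrial genome. Of 72 nuclear ones none was called in either direction by edgeR, and none by DESeq2. At an unadjusted p under 0.05, 0 were higher and 4 lower. Their median was -0.12, with 58 of 72 estimates below 0, but their summed levels overlapped between the groups. The sums were 9277.5, 7258.1 and 8609.7 CPM in 1/7MC replicates 1 to 3 and 7193.7, 8919.2 and 7665.8 CPM with pyruvate. Without 1/7MC replicate 2, 3 of the nuclear genes were lower. Of 13 mitochondrially encoded genes 3 rose (ND1, ND2 and ND4L), with a median of 0.43 and all 13 estimates above 0. Their rises depended on the libraries. Leaving out 1/7MC replicate 3 or 1/7MC+Pyr replicate 3 gave 0 rises, 1/7MC replicate 1 gave 1, 1/7MC+Pyr replicate 2 gave 5 and 1/7MC replicate 2 gave 7. There were 8 by DESeq2 and 1 in the length-scaled signal. COX1 was at 10017, 12920.0 and 8364 CPM in 1/7MC and at 16149.6, 11664 and 14364 CPM with pyruvate, so 1/7MC replicate 2 lay above 1/7MC+Pyr replicate 2 (0.43 ± 0.22, edgeR adjusted p = 0.192). Of 22 tricarboxylic acid cycle genes 1 rose, ACLY, and none fell at the threshold (1 higher and 1 lower at an unadjusted p under 0.05, 1 and 0 by DESeq2). That call was lost without any 1 library other than 1/7MC+Pyr replicate 1, and 1 fall appeared without 1/7MC replicate 2.

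Epithelial genes rose more often than they fell, and matrix and fibroblast genes divided. Junction genes rose in 18 of 47 members and fell in 4 (median 0.44), the desmosome and keratin genes in 8 of 12. CLDN4 was at 1.35, 1.06 and 1.15 CPM in 1/7MC and at 5.20, 4.39 and 5.74 CPM with pyruvate (2.11 ± 0.20), and CLDN11 at 5.46, 4.68 and 4.61 CPM against 18.2, 14.5 and 18.3 CPM (1.79 ± 0.15); both are tight junction claudins. OCLN (occludin) rose from 8.92 to 16.3 CPM (0.87 ± 0.11) and CDH1 (E-cadherin) from 120.3 to 223 CPM (0.89 ± 0.17). Falls numbered 2 without 1/7MC replicates 1 or 2 or 1/7MC+Pyr replicate 2 and 1 without replicate 3 of either group. Of 18 integrin genes 5 rose and 4 fell. ITGA6, a laminin receptor subunit high in stem cells, was at 127, 154 and 122 CPM against 304, 259 and 298 CPM (1.09 ± 0.14). ITGA1, a collagen receptor subunit, was at 63.4, 91.6 and 61.4 CPM against 24.9, 22.9 and 23.9 CPM (-1.59 ± 0.18). ITGA5 and ITGB3 rose, and ITGA4 (-3.27 ± 0.36) and ITGA8 (-1.88 ± 0.21) fell.

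Markers of fibroblasts, the kind of cell most feeder layers are made of, rose in 9 of 41 members and fell in 10, with a median of -0.05. Matrix genes rose in 8 of 20 and fell in 3, whereas surface markers fell in 5 of 9 and none rose at the threshold (1 at an unadjusted p under 0.05, 0 by DESeq2). NT5E (CD73) was at 17.9, 19.6 and 16.9 CPM in 1/7MC and at 4.58, 4.99 and 4.71 CPM with pyruvate (-1.93 ± 0.15). PDGFRA was at 6.03, 5.88 and 5.27 CPM against 1.92, 1.21 and 2.16 CPM (-1.71 ± 0.23), and FAP fell from 4.46 to 0.729 CPM (-2.61 ± 0.31). TWIST1, a mesenchymal factor, fell from 19.1 to 6.50 CPM (-1.56 ± 0.13), and the proteoglycan BGN from 318 to 117 CPM (-1.45 ± 0.17). COL6A3 was at 73.8, 116 and 64.2 CPM against 300.1, 167 and 236 CPM (1.47 ± 0.25) and TNC (tenascin C) at 754, 1182 and 639 CPM against 2453, 1502 and 2037 CPM (1.22 ± 0.24). COL1A1, the main fibrillar collagen, was at 4828, 6706 and 3986 CPM against 11529.5, 5725 and 7995 CPM and was not called (0.70 ± 0.27, edgeR adjusted p = 0.0876). In these matrix genes 1/7MC replicate 2 was the highest of its group and 1/7MC+Pyr replicate 2 the lowest of its own. The summed level of all 43 markers ranged from 29301 to 40049 CPM in 1/7MC and from 35328 to 51686 CPM with pyruvate, so the ranges overlapped. TCF21 was at or near 0 in every library and no other marker of the list was at 0 in any. The part of fibroblast RNA in the other results was not tested. Rises came to 4 when 1/7MC replicates 1 or 3 were left out, 1/7MC+Pyr replicate 1 gave 5 and 1/7MC replicate 2 gave 14.

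Of 22 proteases and plasminogen genes 7 rose and 2 fell. PLAUR, the urokinase receptor, was at 7.24, 6.25 and 6.02 CPM in 1/7MC and at 33.8, 19.1 and 25.3 CPM with pyruvate (2.00 ± 0.18). MMP13, a collagenase, was at 1.55, 1.83 and 1.18 CPM against 8.17, 4.36 and 9.74 CPM (2.28 ± 0.28), and MMP3 rose from 0.989 to 3.93 CPM (2.00 ± 0.30). ADAMTS9, a matrix protease, fell from 12.3 to 2.65 CPM (-2.21 ± 0.17). The second fall was lost without 1/7MC replicate 2 or any 1 of the 3 pyruvate libraries. In the TGF-beta list 8 of 32 rose and 4 fell, with TGFBI (0.98 ± 0.17) and the receptor TGFBR2 (0.85 ± 0.16) up and CCN2 down (-0.67 ± 0.14). BAMBI, a decoy receptor for BMP and TGF-beta ligands, was at 56.8, 58.3 and 67.4 CPM against 9.20, 11.3 and 10.1 CPM (-2.57 ± 0.17). Endothelial and blood markers rose in 4 of 20 and fell in 2, against 8.59 and 11.1 percent of all genes tested. VWF, of endothelium, was at 0.909, 1.53 and 1.27 CPM against 5.88, 3.53 and 4.71 CPM (1.91 ± 0.27), and EMCN (endomucin) at 8.28, 9.24 and 6.68 CPM against 1.20, 1.06 and 0.957 CPM (-2.91 ± 0.20). The rises were 2 without 1/7MC replicate 3. The summed level of these 22 markers was 63.2 to 74.9 CPM in 1/7MC and 70.8 to 77.2 CPM with pyruvate, with GATA1 and TYROBP at or near 0.

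Of 50 cell cycle genes tested 2 rose and 9 fell (median 0.02). Inhibitors accounted for 4 of the falls, and cyclins with their kinases for 4. Inhibitors fell in 4 of 7, and CDKN1B (p27), which holds cells in G1, was at 34.2, 30.0 and 34.0 CPM in 1/7MC and at 17.0, 20.0 and 16.0 CPM with pyruvate (-0.89 ± 0.12). CDKN2C (-1.69 ± 0.33) and CDKN2D (-1.02 ± 0.17), inhibitors of CDK4 and CDK6, fell, and so did the kinase CDK2 (-0.59 ± 0.12). Only 1 of 16 replication genes and 1 of 15 mitosis genes were called. Falls numbered 5 without 1/7MC replicate 3, and rises 4 without 1/7MC+Pyr replicate 1 and 1 without any other library of the 6. HSPA1A, an inducible heat shock protein, was at 274, 249 and 262 CPM against 611, 558 and 570.5 CPM (1.15 ± 0.10), while the heat shock factor HSF2 fell (-0.78 ± 0.12). EGR1 (-0.89 ± 0.12) and FOS (-0.89 ± 0.17), immediate early genes that growth factors induce through ERK, fell. Of 20 heat shock genes tested 5 rose and 3 fell, and of 22 immediate early genes 1 rose and 4 fell. In the joint list of these 42 genes 6 rose and 7 fell. Rises were 3 without 1/7MC replicate 1 or 1/7MC+Pyr replicate 2 and 2 without replicate 3 of either group, and falls 3, 4 and 3 without 1/7MC replicates 1 and 3 and 1/7MC+Pyr replicate 3. Of 43 FGF and ERK genes 5 rose and 9 fell, against 8.59 and 11.1 percent of all genes tested. SPRY1, a feedback inhibitor, was among the falls (-0.67 ± 0.12). The FGF and ERK rises numbered 3 without 1/7MC replicate 1 or 1/7MC+Pyr replicate 2, and 2 without replicate 3 of either group.

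Hypoxia genes rose in 7 of 35 and fell in 4, against 8.59 and 11.1 percent of all genes tested. EGLN3, an oxygen-sensing prolyl hydroxylase, was at 110.1, 103 and 110.5 CPM in 1/7MC and at 209, 224 and 216 CPM with pyruvate (1.00 ± 0.09), and NDRG1 (0.74 ± 0.09) and AK4 (0.86 ± 0.11) rose, while LDHA and PDK1 fell as given above and VEGFA was not called (0.05 ± 0.15). Glycolysis genes rose in 3 of 24 and fell in 2, near the shares of all genes tested. PFKP (0.61 ± 0.10) was among the rises and ENO3 (-0.78 ± 0.16) among the falls. The rises were 1 without any 1 library of 1/7MC or 1/7MC+Pyr replicate 3, and the falls 1 without 1/7MC replicate 1 or 1/7MC+Pyr replicate 3. Genes of the ATF4 stress response rose in 6 of 30 and fell in 2, and its 13 targets accounted for 3 of the rises and both falls. STC2, a secreted stress hormone, rose from 16.3 to 35.9 CPM (1.14 ± 0.21). ASNS, a classic ATF4 target, was not called (0.34 ± 0.13). Those rises were 3 without 1/7MC replicate 1, and the falls 1 without 1/7MC replicates 1 or 2 or 1/7MC+Pyr replicates 2 or 3. Interferon genes rose in 6 of 45 and fell in 5, against 8.59 and 11.1 percent of all genes tested. IRF1 was at 7.68, 6.19 and 8.64 CPM against 13.1, 14.6 and 15.1 CPM (0.93 ± 0.15) and TAP1, the peptide transporter of antigen presentation, rose from 9.98 to 21.3 CPM (1.09 ± 0.12). Rises were 3 without 1/7MC replicates 1 or 2, and falls 2 without 1/7MC replicates 1 or 3 or 1/7MC+Pyr replicate 3 and 3 without 1/7MC replicate 2.

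Redox genes of the NRF2 list rose in 6 of 40 and fell in 6, against 8.59 and 11.1 percent of all genes tested. HMOX1, heme oxygenase, was at 18.7, 17.8 and 17.1 CPM in 1/7MC and at 28.4, 27.9 and 30.6 CPM with pyruvate (0.69 ± 0.12). Those rises were 1 to 4 in fits that left out 1 library, with 1 when 1/7MC+Pyr replicate 3 was left out, 2 for 1/7MC replicates 1 or 3 or 1/7MC+Pyr replicate 2, and 3 for 1/7MC replicate 2; falls numbered 2 when 1/7MC replicates 1 or 3 or 1/7MC+Pyr replicate 3 were left out. Lysosome genes rose in 5 of 34 and fell in 5, against the same 8.59 and 11.1 percent. The membrane protein LAMP2 was up (0.67 ± 0.11) and the protease CTSL down from 9.77 to 2.31 CPM (-2.08 ± 0.16). Both lysosome counts were 3 without 1/7MC replicates 1 or 3 or 1/7MC+Pyr replicate 3, and the falls also without 1/7MC+Pyr replicate 1. Chromatin genes rose in 5 of 50 and fell in 6, near the shares of all genes tested. EZH2, the H3K27 methyltransferase (-0.50 ± 0.09), and UHRF1, which maintains DNA methylation (-0.50 ± 0.10), were among those that fell. With 1/7MC replicate 1 left out there was 1 rise, 1/7MC replicate 3 gave 2 rises and 3 falls, and 1/7MC+Pyr replicate 3 gave 1 rise and 3 falls. Mitochondrial expression and biogenesis genes rose in 3 of 30 and fell in 2, with rises near the share of all genes tested and falls below it. Only PPARGC1B rose when any 1 library of 1/7MC, or 1/7MC+Pyr replicate 3, was left out; the falls were 0 without replicate 3 of either group and 1 otherwise. Genes of p53 and apoptosis rose in 3 of 32 and fell in 2, again near and below those shares. Their falls were 0 without 1/7MC replicate 1 or 1/7MC+Pyr replicate 3 and 1 when 1/7MC replicate 3 or 1/7MC+Pyr replicate 2 was left out.

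FGF on top of pyruvate was set beside these changes. 1/7MC+Pyr+FGF differed from 1/7MC+Pyr in 491 of 13770 genes (3.57 percent; edgeR), 99 higher and 392 lower. This step and the pyruvate step share the 3 libraries of 1/7MC+Pyr, so the values are given side by side only. Several of the deep falls stayed low, with no call in the FGF step. PAX6 was at 7.27, 4.74 and 9.36 CPM in 1/7MC+Pyr+FGF replicates 1 to 3 (-0.39 ± 0.21 against 1/7MC+Pyr), LGR5 at 1.03, 1.06 and 0.876 CPM (-0.08 ± 0.25) and TXNIP at 17.6, 13.5 and 19.9 CPM (-0.39 ± 0.13). PMEL was lower again, at 6.75, 6.52 and 7.63 CPM (-0.60 ± 0.11). DKK1 was higher than with pyruvate alone, at 8.83, 6.55 and 8.93 CPM (1.33 ± 0.17, edgeR adjusted p = 0.000908), as were BAMBI (1.07 ± 0.17), MSX2 (0.96 ± 0.15) and TBX2 (1.32 ± 0.24), all still below 1/7MC in every library. PLAUR was lower, at 10.7, 9.60 and 10.1 CPM (-1.36 ± 0.18), and so were COL6A3 (-1.75 ± 0.26), CDH1 (-0.95 ± 0.17), FOXO1 (-0.98 ± 0.14) and AK4 (-1.06 ± 0.11). ACSS2 was higher in both steps, at 179, 192 and 146 CPM with FGF (0.95 ± 0.11), and so was HMGCS1 (0.82 ± 0.14). PSAT1 was at 41.7, 34.6 and 40.0 CPM, above pyruvate alone (0.87 ± 0.14). Each gene called in this paragraph was called in all fits that left out 1 library of these groups, while leaving out 1/7MC+Pyr replicate 1 gave 166 differing genes, 1/7MC+Pyr replicate 3 gave 230, 1/7MC+Pyr+FGF replicate 1 gave 248 and 1/7MC+Pyr+FGF replicate 2 gave 738.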

How the data were processed

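Poly-A RNA of line F7 was sequenced after preparation with a NEBNext Ultra kit, per the labels' protocols, with no strand-marking step stated; reads of antisense or overlapping genes, and of close copies, may be misassigned. The submitters' processing notes list HISAT2 2.1.0, featureCounts, Subread 2.0, fastp 0.19.7 and the build bosTau9; the gene annotation is not given in the sources used here. The deposited table of counts holds whole-number counts per gene, with no normalisation by the authors. A deposited signal, named TPM by the authors, equals the count per base of gene length times a constant in every library and has no correction for depth; rescaled to an equal sum per library it served as an alternative, tested with limma 3.58.1 on log2(value + 1).

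Of 19285 rows, 400 shared an Ensembl or Entrez identifier with another and were left out. Symbols came from RefSeq genes of ARS-UCD2.0 (19195 rows matched by Entrez identifier), a build other than bosTau9, so no coordinates are given. The 9 libraries of 1/7MC, 1/7MC+Pyr and 1/7MC+Pyr+FGF were fitted together with edgeR 4.0.16 (filterByExpr, trimmed-mean factors of 0.970 to 1.05, quasi-likelihood F test, Benjamini-Hochberg over 13770 genes). The SE was taken as |log2 fold change| over the root of F. CPM were computed here from the deposited counts, and log2 CPM with a prior count of 2. DESeq2 1.42.0 was the other count tool (R 4.3.3, Python 3.11.15, matplotlib 3.10.9). The fit was checked on simulated data.

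Genes were named by a rule: the 15 largest called rises and falls with a mean of at least 1 CPM and no overlap, the 10 most abundant called genes per direction, a panel of pyruvate genes with NANOG and POU5F1, and per list the called members with the 4 smallest p per direction; not all are described, and some are not reported here. The comparison, the 43 gene lists (1342 different genes, 1160 tested) and the rule were chosen with earlier results of these data known, so a list's count is no independent evidence. Alternatives were relative log expression factors, DESeq2, no or a stricter filter, 6 or 12 libraries in the fit, a replicate block, shared rows kept, the rescaled signal, leaving out each library and, added after seeing the data, a gene length offset. No sequence is printed, since a genome of the build was not used here.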

Additional observations from a re-analysis of the deposited data

How the results depend on the processing

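Across 16 alternatives no gene called and named by the rule changed direction; of 263 such genes 75 lost the call in at least 1. Leaving out 1 library gave 632 to 1116 higher and 976 to 1430 lower genes (1183 and 1523 with all), and 166 to 738 genes that differed between 1/7MC+Pyr+FGF and 1/7MC+Pyr (491 with all). That last count was 324 with 6 libraries in the fit and 984 with DESeq2. Under the same omissions rises numbered 8 to 12 in cholesterol synthesis, 5 to 9 in fatty acid synthesis, 6 to 13 in amino acid transporters, 0 to 7 among mitochondrially encoded genes and 4 to 14 among fibroblast markers, and falls 6 to 9 in the FOXO and PPAR fasting response. Amino acid transporters rose in 6 with the rescaled signal. Mitochondrially encoded genes rose in 7 with 6 libraries, 8 with DESeq2 and 1 with the rescaled signal. The median of the trophectoderm and amnion list was -0.45 and became 0.20 with the stricter filter, and that of HOX genes was 0.53 and became -2.78 with 6 libraries; both settings change which members are tested. The causes of the other shifts were not tested, and no HOX gene was left under the stricter filter. The totals of higher and of lower genes for 1/7MC+Pyr against 1/7MC stayed within 1.5 times under every alternative that kept all libraries of these 2 groups.

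Replicate numbers did not pair the libraries: same-numbered libraries of 1/7MC and 1/7MC+Pyr had deviations correlated at -0.0816, -0.258 and 0.0052, and none correlated best with its own number. A replicate block gave 949 higher and 1275 lower genes, and 199 for the FGF step. It gave 2 rises in the NRF2 list (6 without it), 1 each in glycolysis, serine and one-carbon and cell cycle genes (3, 2 and 2) and 0 in the tricarboxylic acid cycle (1), and 2 falls each in junction and interferon genes (4 and 5), 3 in lysosome genes (5) and 0 in mitochondrial expression genes (2). Cell cycle rises numbered 5 by DESeq2 and 6 with the length offset, and those of aspartate and nucleotide genes 4 by both (1 in the report). A search of promoters for motifs, planned at first, was not run. Depth limits genes with few counts: with 3 libraries a group, genes such as DLX1 were near 0 with pyruvate, and their fold has a wide interval.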

Other observations

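Several of the largest changes lie outside the groups described. MT3, the metallothionein of brain, had 188, 111 and 307 counts in 1/7MC replicates 1 to 3 and 1, 1 and 4 with pyruvate, a log2 fold change of -6.45 ± 0.56 by edgeR. DAPL1, known from retinal pigment epithelium, had 76, 81 and 94 counts against 0, 2 and 1, a ratio of 78.9 with an exact 95% interval of 26.7 to 385 for counting error only. ESM1, a secreted endothelial proteoglycan, was at 5.83, 7.07 and 6.83 CPM against 0.650, 0.258 and 0.0709 CPM (-4.32 ± 0.39), and KLHL14 at 3.67, 4.61 and 4.50 CPM against 0.171, 0.230 and 0.213 CPM (-4.35 ± 0.32). STMN1, which destabilises microtubules, fell from a higher level and was called in every fit that left out 1 library, at 778, 631 and 768 CPM against 369.7, 490.0 and 406 CPM (-0.78 ± 0.15). For MT3, DAPL1, ESM1 and KLHL14 no overlap between the groups was a condition of being named, so it is no support for their falls. STMN1 was named for its level, and its groups did not overlap either.

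Several rises came from low levels. PRND, the prion-like protein doppel, was at 0.943, 0.662 and 0.461 CPM against 2.60, 3.47 and 3.51 CPM (2.23 ± 0.29). ADCY8, a calcium-stimulated adenylyl cyclase, was at 0.741, 1.11 and 1.07 CPM against 4.75, 3.67 and 3.37 CPM (2.00 ± 0.28). RYR2, a calcium release channel, was at 1.01, 1.56 and 0.749 CPM against 4.31, 3.87 and 4.15 CPM (1.88 ± 0.34), and KLK10, a secreted serine protease, at 1.08, 1.01 and 1.41 CPM against 5.40, 2.93 and 4.64 CPM (1.88 ± 0.25). PLAC8A rose from 0.538 to 2.98 CPM (2.48 ± 0.28). SUSD2, a surface marker of naive human cells, rose from a higher level, 20.4 to 47.7 CPM (1.22 ± 0.21).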
